A study of Mus musculus with 12 samples.

Results

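The enzymes and carriers examined here take glucose into the cell, split it to pyruvate, exchange pyruvate with lactate, or divert glucose into the pentose phosphate pathway. The set held 35 genes listed by name with earlier results of these data known, with no measured value in the rule, out of 55573 genes in the count table. All 35 were found, and all 35 passed edgeR's filter on low counts, which left 16761 genes tested. By role they fell into 8 steps: glucose transporters, hexokinase with glucose phosphate isomerase, phosphofructokinase with its regulators, lower glycolysis, lactate dehydrogenase, monocarboxylate transport, pyruvate dehydrogenase with its kinases, and the pentose phosphate pathway.

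Glycolysis turns glucose into pyruvate, which either enters mitochondria through pyruvate dehydrogenase or is reduced to lactate by lactate dehydrogenase. Astrocytes are known for active glycolysis, for storing glycogen, and for releasing lactate through monocarboxylate carriers that neurons can use as fuel. The pentose phosphate pathway leaves glycolysis at glucose 6-phosphate and supplies NADPH and ribose. Pyruvate dehydrogenase kinases phosphorylate and switch off pyruvate dehydrogenase, so they stand at the branch between lactate and mitochondrial oxidation.

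The study asked how much of the transcriptional response of astrocytes to vasoactive intestinal peptide (VIP), a neuropeptide that raises cyclic AMP, passes through the transcription factor CREB. Forebrain cells of C57BL6/J pups at postnatal day 0 to 2 were grown to confluence, shaken and replated at 7 days in vitro to enrich astrocytes, and transduced with lentivirus 5 days before the experiment. The virus carried the CMV-driven vector pCIG3 with GFP alone, or pCIG3-ACREB, which adds a dominant-negative inhibitor of CREB. Cultures then received PBS or 0.5 µM VIP in the bath for 30 min and were lysed after a further 90 min.

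The 4 groups were control virus with PBS (control PBS), control virus with VIP (control VIP), ACREB virus with PBS (ACREB PBS) and ACREB virus with VIP (ACREB VIP), each with 3 libraries of polyA RNA. All 4 groups carried a lentivirus and came from C57BL6/J tissue, and none was without virus. The CMV promoter of the vector is not restricted to astrocytes. The labels do not say whether replicates 1 to 3 are separate cultures or litters, and p-values measure the spread between these libraries, which may be technical. VIP was measured at a single dose and a single time.

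Total counts ran from 16571398 to 20529238 per library. All 8 astrocyte markers had counts in these cultures, with a summed level of 4962 to 6256 CPM (counts scaled to a common library size). Markers of other cells were present too, with 724 to 1883 CPM over 8 microglial genes and 932 to 1598 over 8 oligodendrocyte-lineage genes. The sum was 28.7 to 86.5 CPM over 8 neuronal genes and 22.5 to 57.8 over 8 endothelial genes, of which Cldn5 was at 0. Over 8 fibroblast and mural genes it was 1889 to 3033 CPM. Most of that was Acta2, with a mean of 2149 CPM over the 12 libraries, while each of the others averaged 0.54 to 56.7. In such bulk RNA, fewer cells of a type and less RNA per cell cannot be told apart. Control PBS library 2 stood apart from the other 11. Its deviation from each gene's mean over the 12 libraries followed GC content and exon length. These accounted for 42.6% of the variance of that deviation, against 18.6% in ACREB PBS library 2 and at most 15.8% elsewhere.

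The glycolytic genes were unevenly exposed to that library. Control PBS library 2 was the highest of 12 for 26 of the 35 members, while it was the highest for 31.6% of all genes tested. The median member lay 0.48 (log2) above its median over the libraries there, and 30 of 35 members were above it, whereas the median of all genes was 0.02. ACREB PBS library 2 came next, with a median member departure of 0.19 and 27 of 35 members above. The 26 members that peaked in control PBS library 2 had a median exon GC content of 53.5%, the other 9 had 45.6%, and all genes tested had 49.6%. Values without this library, and from fits with offsets that correct each library for GC content and exon length, are given below where they change a call.

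**Figure D1:**
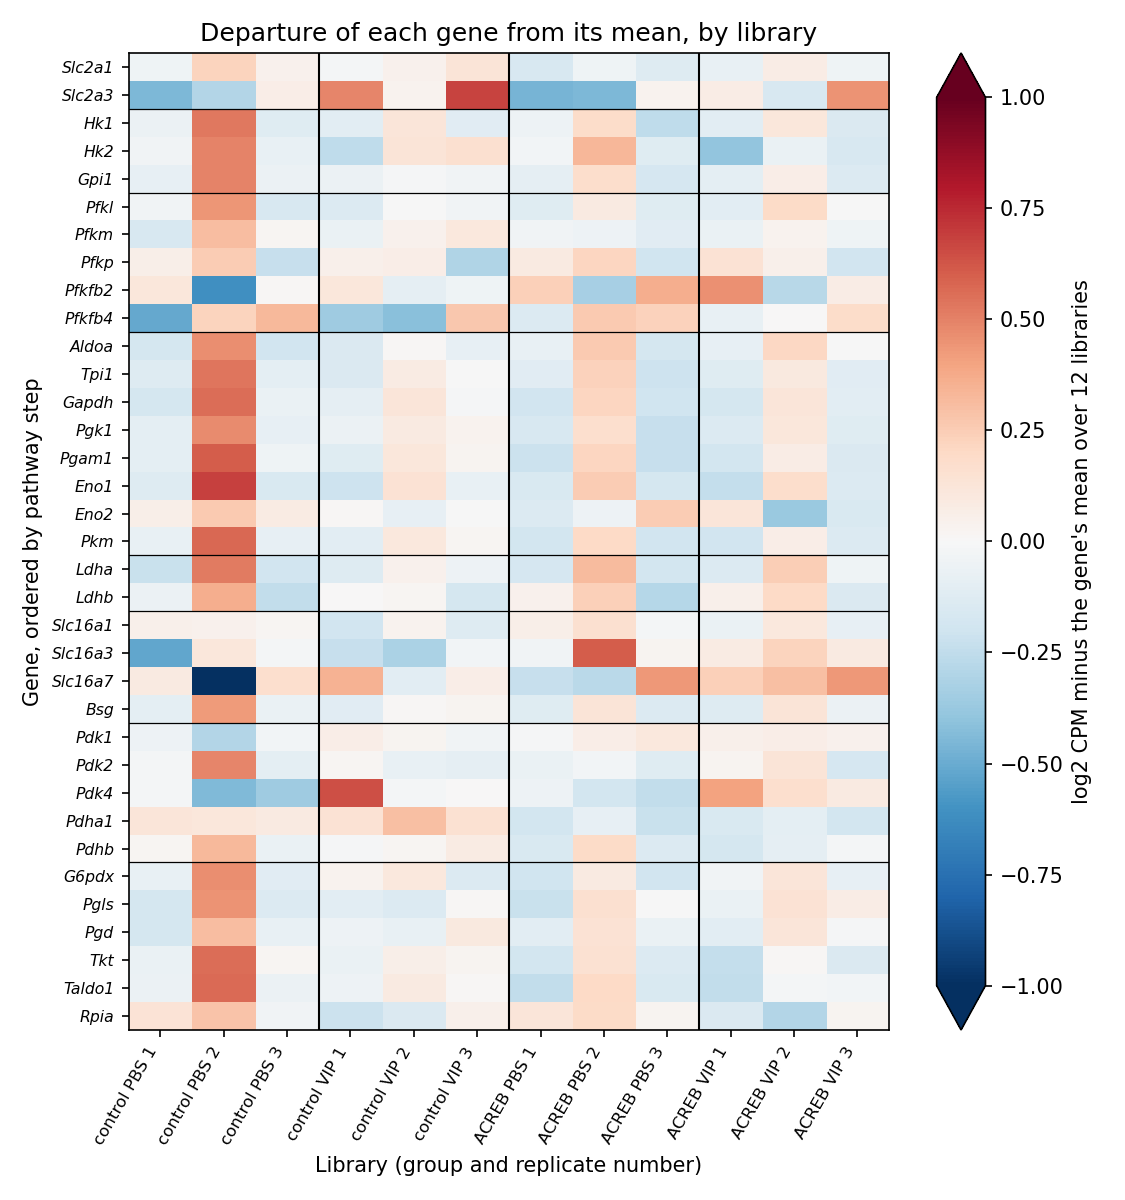
Each row is one of the 35 genes, ordered by pathway step, each column a library, and the colour the log2 CPM minus the gene's mean over the 12 libraries. Control PBS library 2 is the highest column for 26 of the 35 genes, while Slc2a3 and Pdk4 are higher in the VIP columns and Pdha1 is lower in the ACREB columns.

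Promoter sequences were examined because CREB binds the cyclic AMP response element. RefSeq promoters (GRCm38.p6) were matched to 32 of the 35 members, and the 250 bases before and 50 bases after each start were searched on both strands. The full element TGACGTCA was found in 1 of 32 members, Ldha (3.12%), against 2.03% of 27025 genes with a promoter, or 1.79% of 32851 promoters. Its short form TGACG, which the full element contains, was found in 10 of 32 (31.2%), against 23.0% of genes. The core ACGTG, known from hypoxia response elements, was found in 16 of 32, against 21.8% of genes. The E-box CACGTG, which contains ACGTG, was found in 5 of 32 (15.6%), against 8.09% of genes. A gene was counted if any of its windows matched, and windows per gene differed: 47 for the 32 members, 32851 for the 27025 genes. A match describes letters in a window and is not a measured binding site.

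The windows below are shown for Ldha, the carrier of the full element, and for Pdha1, Pdk4, Slc16a3 and Slc16a1, each called in some fit given below. Slc2a3, which had no promoter entry, and Pgam1, Pgk1 and Taldo1 were also called in some fit and are not shown. Each is the run of 250 bases before a RefSeq start, 5′ to 3′ on the gene's strand, and capitals mark any of the 4 motifs on either strand. They lie at chr7:46845554-46845803 (plus strand) for Ldha, chrX:160138431-160138680 (minus) for Pdha1, chr6:5496279-5496528 (minus) for Pdk4, chr11:120948817-120949066 (plus) for Slc16a3 and chr3:104638414-104638663 (plus) for Slc16a1.
Ldha: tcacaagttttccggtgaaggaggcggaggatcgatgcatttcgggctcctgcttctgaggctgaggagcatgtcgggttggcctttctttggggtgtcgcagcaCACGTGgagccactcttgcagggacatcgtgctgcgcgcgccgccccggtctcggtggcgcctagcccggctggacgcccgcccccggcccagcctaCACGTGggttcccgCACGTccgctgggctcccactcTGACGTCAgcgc
Pdha1: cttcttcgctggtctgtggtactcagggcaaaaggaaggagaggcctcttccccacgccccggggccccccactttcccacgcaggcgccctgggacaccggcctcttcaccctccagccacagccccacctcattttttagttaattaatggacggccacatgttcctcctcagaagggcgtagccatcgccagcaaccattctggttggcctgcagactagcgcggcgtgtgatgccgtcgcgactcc
Pdk4: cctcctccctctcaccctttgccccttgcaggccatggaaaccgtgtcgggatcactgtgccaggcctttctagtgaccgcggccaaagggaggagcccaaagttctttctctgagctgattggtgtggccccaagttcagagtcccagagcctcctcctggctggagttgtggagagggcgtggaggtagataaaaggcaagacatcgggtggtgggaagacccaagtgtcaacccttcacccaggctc
Slc16a3: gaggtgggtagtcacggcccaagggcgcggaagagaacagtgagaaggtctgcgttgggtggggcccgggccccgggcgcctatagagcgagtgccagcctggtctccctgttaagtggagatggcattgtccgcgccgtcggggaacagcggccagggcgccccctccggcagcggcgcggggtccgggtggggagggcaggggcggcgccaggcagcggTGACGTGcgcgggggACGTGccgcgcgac
Slc16a1: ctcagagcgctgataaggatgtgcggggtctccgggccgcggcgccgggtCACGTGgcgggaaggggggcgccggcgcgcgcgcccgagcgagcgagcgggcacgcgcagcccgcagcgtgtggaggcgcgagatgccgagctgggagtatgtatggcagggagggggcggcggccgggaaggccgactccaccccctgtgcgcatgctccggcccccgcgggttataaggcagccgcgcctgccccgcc
The TGACGTCA of Ldha ran from base -12 to base -5 before the start, and the same window held CACGTG at -145 and at -48. The printed runs of Pdha1 and Pdk4 held none of the 4 motifs in these letters. The TGACG counted for Pdha1, on the opposite strand, begins at the last base of its run and crosses the start.

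Resting levels were compared between genes per kb of exon in control PBS, with length counted over all annotated exons of a gene. Ldhb, the lactate dehydrogenase subunit that predominates in oxidative tissue, had the highest mean, at 525.5 ± 118 CPM per kb (SD, n = 3). Gapdh followed at 419 ± 121, then aldolase Aldoa at 343 ± 94.2, phosphoglycerate kinase Pgk1 at 277 ± 66.2 and Bsg, the chaperone subunit of monocarboxylate carriers, at 269 ± 57.4 CPM per kb. Neighbours among these 5 differed by less than the larger of their SDs. Before division by length Ldhb was below Gapdh, at means of 825 and 1733 CPM in control PBS. The lowest members were the carriers Slc16a3 (MCT4) at 2.05 ± 0.44 and Slc16a7 (MCT2) at 0.31 ± 0.15 CPM per kb, with Rpia (ribose 5-phosphate isomerase) at 2.31 ± 0.25.

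**Figure D2:**
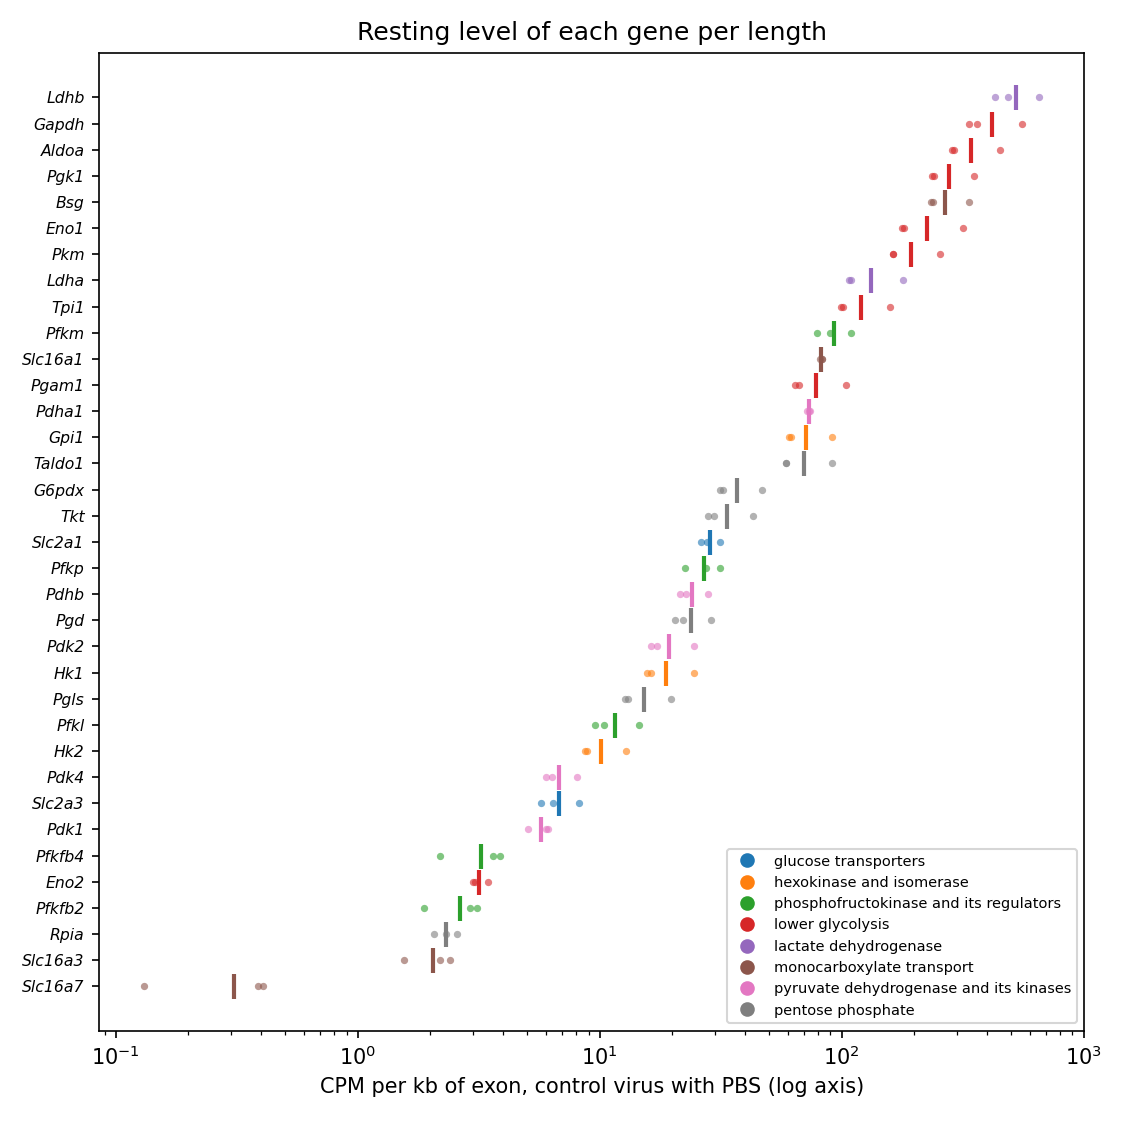
Round points give the CPM per kb of exon of each gene in the 3 libraries of control virus with PBS. Vertical ticks give their mean, on a log axis and coloured by pathway step. The means run from 0.31 for Slc16a7 to 525.5 for Ldhb.

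Among the lactate dehydrogenases, lactate carriers, enolases, phosphofructokinases and hexokinases, one form held most of the transcripts per kb in all 12 libraries. Ldhb made up 78.6 to 82.4% of Ldha and Ldhb together. Slc16a1 (MCT1) made up 96.1 to 97.7% of the 3 lactate carriers, and Eno1 98.1 to 99.0% of the 2 enolases. Pfkm, the muscle-type phosphofructokinase, held 66.9 to 74.9% of the 3 phosphofructokinases and Hk1 60.8 to 69.6% of the 2 hexokinases. The Pfkm share rests on the length used, 3.34 kb of exon for Pfkm and 13.4 kb for Pfkp. Before division by length Pfkp was above Pfkm, at means of 356 and 296 CPM over the 12 libraries. The 4 groups overlapped in the shares of Ldhb, Eno1 and Pfkm. The Hk1 share was 62.8 to 64.9% in ACREB PBS and 65.4 to 69.6% in ACREB VIP, without overlap. With control virus it was 64.4 to 65.6% with PBS and 60.8 to 67.5% with VIP, which overlapped. How often such shares separate groups for other genes was not computed.

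The average of the set did not separate the 4 groups. The mean log2 CPM over the 35 members was 7.00 ± 0.19 in control PBS, 6.97 ± 0.03 in control VIP, 6.94 ± 0.12 in ACREB PBS and 6.96 ± 0.06 in ACREB VIP (SD, n = 3). The ranges of the 4 groups overlapped, and the highest value, 7.23, was that of control PBS library 2. Members took 0.929 to 1.36% of all counts in a library.

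VIP against PBS gave 0 calls among 35 members in either virus by edgeR's quasi-likelihood test at a Benjamini-Hochberg adjusted p under 0.05. Over all genes tested, 0.489% were called with control virus and 0.0119% with ACREB. At an unadjusted p under 0.05, 2 members (Slc2a3 and Pdk4) were higher with control virus, against 6.42% of all genes in either direction, and 0 with ACREB, against 1.92%. DESeq2, run on the count table without edgeR's filter, also called 0 members in both viruses. It called 245 and 27 genes in all, which equals 1.46% and 0.161% of the 16761 genes that passed edgeR's filter. The DESeq2 percentages below use the same divisor, which is not the number of genes DESeq2 tested. Averaged over both viruses, edgeR again called 0 members, against 0.728% of all genes, as did DESeq2 (1.77%). At an unadjusted p under 0.05 there were 3 in that average, Slc2a3 and Pdk4 higher and Rpia lower, against 6.67% of all genes. With the replicate number as a block, the same edgeR test called Slc2a3 in control virus (1 of 35, against 1.63% of all genes) and Slc2a3 and Pdk4 in the average (2 of 35, against 2.25%), all higher, and 0 with ACREB (0.0776%). With GC and length offsets added to the block it called 2 of 35 in control virus (3.41%), 0 with ACREB (0.239%) and 3 in the average (4.24%), the addition being Slc16a1, lower.

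Direction with VIP leaned downward before correction. With control virus 29 of 35 members had a log2 fold change below 0, against 8915 of all 16761 genes. The median of members was -0.13, while the median of all genes was -0.02. The median member departed from its median over the libraries by 0.48 (log2) in control PBS library 2. In control PBS libraries 1 and 3 the departure was -0.03 and -0.02, and in control VIP it was -0.01 to 0.04. With GC and length offsets 24 of 35 members were below 0, against 9442 of 16761 genes. The median was then -0.03, equal in 2 decimals to that of all genes. With ACREB 19 of 35 were below 0, against 8255 of 16761 genes, and the medians of members and of all genes were both 0.00. The 95% intervals of 33 of 35 members in control virus and 34 of 35 with ACREB lay within 1 of 0 on the log2 scale, the exceptions being Slc2a3 with control virus and Slc16a7 with both.

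ACREB against control virus also gave 0 calls among 35 members by edgeR, with PBS (0.0358% of all genes) and with VIP (0.0537%), and 0 in the average over both treatments (0.674%). At an unadjusted p under 0.05, Pdha1 was lower in each treatment, 1 of 35 both times, against 5.3% and 5.69% of all genes in either direction. In the average Pdha1 was lower and Slc16a3 higher, 2 of 35 against 9.47%. DESeq2 called 0 members with PBS (0.561% of all genes), 1 with VIP (0.728%) and 1 in the average (2.48%), Pdha1 both times. With the replicate block edgeR called Pdha1 in the average, 1 of 35 against 3.45% of all genes, and 0 with PBS (0.221%) or VIP (0.364%). With offsets added it called Pdha1 with PBS (1 of 35, against 1.83%) and with VIP (1 of 35, against 3.5%). In the average it then called 5 of 35, against 9.81%: Slc16a3 higher, and Pdha1, Pgam1, Pgk1 and Taldo1 lower. With PBS, where control PBS library 2 is in the control group, 27 of 35 members were below 0, against 8180 of 16761 genes. The medians were -0.13 and 0.01. With GC and length offsets 28 of 35 were below 0, against 9301 genes, at medians of -0.10 and -0.03. With VIP 20 of 35 were below 0, against 8309 genes, and 22 with offsets, against 8734.

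Markers of other cell types also differed with the virus. With the replicate block, 5 of 8 microglial markers were called higher with ACREB in the average of both treatments by edgeR's test, with a median log2 fold change of 0.42, and 0 of 8 astrocyte markers were called in either direction. In the same fit Flt1, 1 of the 2 endothelial markers tested, was called higher, while the collagens Col1a1 and Col1a2, 2 of 8 fibroblast and mural markers, and Tubb3, 1 of 7 neuronal markers, were called lower. Without the block 0 markers of these lists were called. Summed microglial markers ranged over 754 to 1442 CPM in control PBS, 724 to 1537 in control VIP, 978 to 1798 in ACREB PBS and 928 to 1883 in ACREB VIP. All 8 had counts. The part of these markers in the ACREB differences of any member was not tested.

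Among glucose transporters, Slc2a3 (GLUT3, best known as the neuronal carrier; chromosome 6, 122727809 to 122801640, minus strand, GRCm38) carried the VIP difference. In libraries 1 to 3 it measured 41.7, 46.5 and 59.7 CPM with control PBS and 80.0, 58.3 and 90.8 in control VIP. It measured 41.3, 41.7 and 58.4 CPM in ACREB PBS and 59.9, 51.0 and 78.0 in ACREB VIP. VIP was higher than PBS in 6 of 6 same-numbered pairs, while the group ranges overlapped in both viruses; of all genes tested, 3.66% were higher in 6 of 6 pairs. Library 2 had the smallest difference in each virus, at 0.32 and 0.29 (log2), against 0.42 to 0.94 in the other 4 pairs.

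The Slc2a3 log2 fold change of VIP over PBS was 0.63 (SE 0.22, 95% interval 0.16 to 1.10) in control virus and 0.42 (SE 0.22, -0.05 to 0.89) with ACREB. Without the block neither passed edgeR's quasi-likelihood test (Benjamini-Hochberg adjusted p = 0.49 and 1). With the block Slc2a3 rose by 0.63 in control virus (SE 0.11, edgeR adjusted p = 0.0197) and by 0.52 in the average of both viruses (SE 0.08, adjusted p = 0.00642), but did not pass with ACREB alone (edgeR adjusted p = 0.585). The difference between the viruses, -0.21 (95% interval -0.88 to 0.45), did not pass either (edgeR adjusted p = 1). Summed neuronal markers were 34.1 to 86.5 CPM in control PBS and 41.0 to 63.6 in control VIP, and 28.7 to 48.1 in ACREB PBS and 32.3 to 46.3 in ACREB VIP. All 8 had counts and 7 were tested, with a median log2 fold change with VIP of 0.40 in control virus and 0.47 in the average. The most abundant, Tubb3, did not rise, at 25.2, 77.6 and 21.9 CPM in control PBS and 21.8, 44.5 and 22.4 in control VIP. Each of the other neuronal markers averaged only 0.12 to 6.09 CPM over the 12 libraries. One of them, Gad1, which makes the transmitter GABA, rose by 1.66 in control virus (edgeR adjusted p = 0.0135, and 0.00477 with the block) and by 1.01 in the average (0.0218 and 0.0101). The part of these markers in the VIP differences of Slc2a3 and Pdk4 was not tested.

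Slc2a1 (GLUT1, the main glucose carrier of glia; chromosome 4, 119108711 to 119137983) had no call in any fit. It measured 92.0, 110.3 and 97.5 CPM in control PBS, 93.4, 97.7 and 103.8 in control VIP, 84.6, 92.1 and 86.8 in ACREB PBS and 90.0, 99.9 and 92.2 in ACREB VIP. The groups overlapped in all 4 comparisons, most narrowly between ACREB PBS and control PBS. The log2 fold change with VIP in control virus was -0.02 (95% interval -0.24 to 0.20). Per kb, Slc2a1 made up 80.7 ± 3.16% of Slc2a1 and Slc2a3 in control PBS and 72.9 ± 4.12% in control VIP, and 79.5 ± 3.51% and 75.6 ± 4.61% with ACREB (SD, n = 3). The libraries of PBS and VIP overlapped in both viruses.

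Hexokinases phosphorylate glucose and trap it in the cell. Hk1, the constitutive brain form, measured 139.8, 210.2 and 133.8 CPM in control PBS, 135.9, 158.6 and 135.1 in control VIP, 140.9, 165.5 and 122.6 in ACREB PBS and 135.7, 157.9 and 132.2 in ACREB VIP. Library 2 was the highest in each group, by far the most in control PBS. Hk2, the inducible form, measured 53.1, 77.0 and 51.8 CPM in control PBS, 45.8, 59.6 and 60.9 in control VIP, 53.3, 68.7 and 50.2 in ACREB PBS and 41.4, 51.9 and 48.8 in ACREB VIP. With ACREB the Hk2 log2 fold change with VIP was -0.28 (SE 0.18, edgeR adjusted p = 1), the most negative of the 35 members in that comparison, and the groups overlapped. Gpi1, the isomerase that follows, ranged from 369.8 to 587 CPM over the 12 libraries, with its peak in control PBS library 2.

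Phosphofructokinase commits glucose to glycolysis, and the PFKFB enzymes set the fructose 2,6-bisphosphate that activates it. Pfkp, the platelet type, measured 369, 421 and 301 CPM in control PBS, 366, 369 and 286 in control VIP, 376, 411 and 307 in ACREB PBS and 391, 365 and 310 in ACREB VIP, so the replicate numbers separated it more than the groups did, with library 3 the lowest each time. Pfkfb2 measured 22.6, 13.7 and 21.1 CPM in control PBS, 22.7, 19.6 and 20.3 in control VIP, 24.6, 16.6 and 26.9 in ACREB PBS and 28.8, 17.3 and 22.0 in ACREB VIP. It was lowest in library 2 of every group, the opposite of Hk1. Its ACREB log2 fold change with PBS, 0.25, was next to Slc16a3 the most positive of the members and did not pass (SE 0.24, edgeR adjusted p = 0.956). Over the 12 libraries Pfkm ranged from 264 to 366 CPM, the liver type Pfkl from 63.9 to 97.3 and Pfkfb4 from 10.7 to 18.9, each with groups that overlapped.

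In lower glycolysis control PBS library 2 was the highest of 12 for 8 of 8 genes, as it was for 3 of 3 in the hexokinase step, 2 of 2 lactate dehydrogenases and 6 of 6 pentose phosphate genes. Pkm, the pyruvate kinase that makes pyruvate, measured 816, 1281 and 814 CPM in control PBS and 800.1, 928 and 873 in control VIP. It measured 758, 988 and 753 CPM in ACREB PBS and 753, 903 and 785 in ACREB VIP. Eno1 (enolase) measured 972, 1704 and 957 CPM in control PBS, 921, 1176 and 1011 in control VIP, 958, 1267 and 943 in ACREB PBS and 903, 1198 and 965 in ACREB VIP. Library 2 was the highest Eno1 value in each group, and its log2 fold change with VIP in control virus was -0.23 (SE 0.22, edgeR adjusted p = 0.782). Summed over the 8 genes, the level was 4976 to 8062 CPM in control PBS, 5020 to 5861 in control VIP, 4790 to 6380 in ACREB PBS and 4877 to 5999.9 in ACREB VIP. The aldolase Aldoa ranged from 834 to 1316 CPM over the libraries, the triose phosphate isomerase Tpi1 from 259.6 to 435, Gapdh from 1369.7 to 2309 and Pgk1 from 487 to 793.

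ACREB was lower than control virus in 6 of 6 same-numbered pairs for 3 of these 8, Gapdh, the mutase Pgam1 and Pkm, and in all for 8 of the 35 members, the others being Pdha1, Pdhb, Slc2a3, Taldo1 and Tkt. Of all genes tested, 7.76% were lower in 6 of 6. Pgam1 measured 127.2, 206.9 and 132.4 CPM in control PBS, 125.5, 147.6 and 139.2 in control VIP, 117.8, 158.4 and 116.3 in ACREB PBS and 119.9, 143.3 and 123.3 in ACREB VIP. The groups overlapped, and the averaged log2 fold change with ACREB was -0.17 (SE 0.13, edgeR adjusted p = 0.797). It was -0.19 with the block plus GC and length offsets, where it passed (edgeR adjusted p = 0.0132), as did Pgk1 at -0.18 (adjusted p = 0.0299). In control virus Eno2, the neuronal enolase, was lower with VIP without overlap (12.8 to 13.7 against 14.1 to 16.3 CPM), as for 5.27% of all genes, at a log2 fold change of -0.16 (SE 0.15, edgeR adjusted p = 0.782). Gapdh had 80 genes of near-identical sequence, 75 of them pseudogenes. All 80 held only 0.553% of the counts that they and Gapdh had together over the 12 libraries.

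Lactate dehydrogenase interconverts pyruvate and lactate. Ldha, the member whose promoter held the full cyclic AMP response element, measured 356, 593 and 363 CPM in control PBS and 378, 426 and 399 in control VIP. It measured 369.7, 517 and 364 CPM in ACREB PBS and 376, 492 and 401 in ACREB VIP. The control groups overlapped only through library 2 of control PBS, with libraries 1 and 3 below all VIP libraries. The log2 fold change with VIP was -0.12 (95% interval -0.57 to 0.32, edgeR adjusted p = 0.835) in control virus and 0.02 (-0.42 to 0.47, adjusted p = 1) with ACREB, and ACREB averaged over treatments gave 0.00 (-0.31 to 0.32, adjusted p = 0.999). Ldhb measured 769, 1031 and 675 CPM in control PBS, 802, 811 and 707 in control VIP, 824, 947 and 655 in ACREB PBS and 827, 921 and 723 in ACREB VIP. Library 3 was the lowest for Ldhb in every group, and the groups overlapped.

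Monocarboxylate transporters carry lactate and pyruvate across the membrane. Slc16a1 (MCT1; chromosome 3, 104638668 to 104658462, plus strand) measured 369, 367 and 359 CPM in control PBS and 311, 364 and 325 in control VIP. It measured 370.5, 398 and 351 CPM in ACREB PBS and 339, 383 and 336 in ACREB VIP. VIP was lower in 6 of 6 same-numbered pairs, by 0.01 to 0.25 on the log2 scale, and 4.71% of all genes tested were lower in 6 of 6. The log2 fold change with VIP was -0.13 (SE 0.10) in control virus and -0.08 (SE 0.10) with ACREB, neither passing edgeR's test (adjusted p = 0.782 and 1), nor with the block (0.418 and 0.999). With the block plus GC and length offsets Slc16a1 was called at -0.38 in control virus (edgeR adjusted p = 0.0463) and at -0.26 in the average (0.0453). Without control PBS library 2 the same fit called it in the average alone, at -0.20 (edgeR adjusted p = 0.0314). Of the 8 oligodendrocyte-lineage markers, all with counts, 0 were called with VIP without the block and 1 was called lower with it, in control virus and in the average. This was Olig2, a transcription factor of that lineage (log2 fold change without the block -0.83 and -0.57, edgeR adjusted p with the block 0.00396 and 0.00348). The median over the 8 was -0.18 in control virus and -0.19 in the average. Their summed level was 1146 to 1598 CPM in control PBS, 1005 to 1130 in control VIP, 1076 to 1182 in ACREB PBS and 932 to 1148 in ACREB VIP. Their part in the Slc16a1 difference was not tested.

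Slc16a3 (MCT4, the low-affinity lactate exporter; chromosome 11, 120948480 to 120960868, plus strand) measured 8.26, 12.8 and 11.7 CPM in control PBS and 10.1, 9.49 and 11.6 in control VIP. It measured 11.5, 18.0 and 12.1 CPM in ACREB PBS and 12.5, 13.8 and 12.6 in ACREB VIP. With VIP every ACREB library was above every control library, while with PBS they overlapped; 6.97% of all genes tested were higher without overlap with VIP. ACREB was higher in 6 of 6 same-numbered pairs, as for 8.44% of all genes. The averaged log2 fold change was 0.33 (SE 0.14, 95% interval 0.02 to 0.64) and did not pass edgeR's test (adjusted p = 0.477, with the block 0.175). It passed at 0.38 with the block plus GC and length offsets (edgeR adjusted p = 0.0317). The microglial markers given above moved the same way with ACREB, and their part in Slc16a3 was not tested.

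Slc16a7 (MCT2, known as the neuronal high-affinity carrier) had the lowest level per kb of the members. It measured 4.57, 1.55 and 4.83 CPM in control PBS, 5.47, 3.998 and 4.49 in control VIP, 3.65, 3.57 and 5.80 in ACREB PBS and 5.05, 5.29 and 5.79 in ACREB VIP. The lowest value was again in control PBS library 2, and the groups of each virus overlapped. Its log2 fold change was 0.34 (95% interval -0.41 to 1.10) with VIP in control virus and 0.21 (-0.53 to 0.95) with ACREB among VIP libraries. Bsg, which escorts these carriers to the membrane, ranged from 411 to 607 CPM and passed no comparison without or with the block or the offsets.

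**Figure D3:**
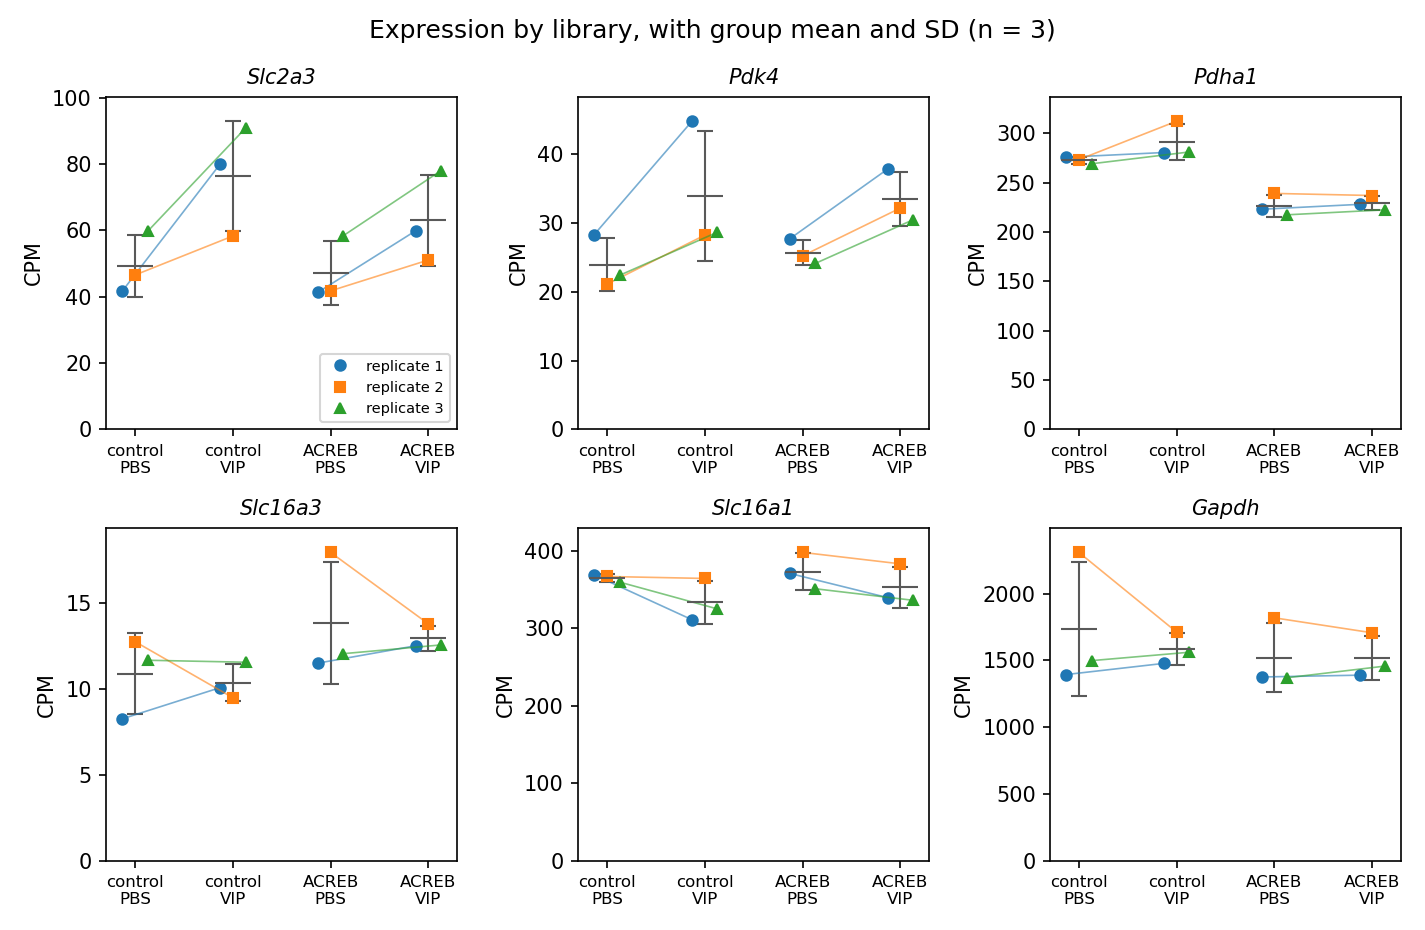
Points are the CPM of each library by group, with colour and marker for the replicate number, and lines the group mean with SD (n = 3), each panel starting at 0. Slc2a3 and Pdk4 are higher with VIP in all same-numbered pairs, and all 6 Pdha1 values with ACREB (217 to 239) lie below the 6 control values (269 to 312).

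Pyruvate dehydrogenase admits pyruvate to mitochondria. Pdha1, its E1 alpha subunit (chromosome X, 160122209 to 160138413, minus strand), gave the clearest difference of the set. It measured 276, 273 and 269 CPM in control PBS and 281, 312 and 281 in control VIP. It measured 223, 239 and 217 CPM in ACREB PBS and 228, 237 and 223 in ACREB VIP. Every ACREB library lay below every control library in both treatments, and the values within a group were close; 4.44% of all genes tested were lower without overlap with PBS and 7.06% with VIP. Control PBS library 2 did not stand apart for this gene.

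The Pdha1 log2 fold change of ACREB over control virus was -0.27 (SE 0.09, 95% interval -0.46 to -0.07) with PBS and -0.35 (SE 0.09, -0.54 to -0.15) with VIP, or -0.31 (SE 0.06, -0.44 to -0.17) in the average. By edgeR's quasi-likelihood test these gave Benjamini-Hochberg adjusted p of 0.614, 0.31 and 0.0539. With the replicate block Pdha1 fell by 0.31 in the average (edgeR adjusted p = 0.0107). It also passed in the average without control PBS library 2 (edgeR adjusted p = 0.0299), with GC and length offsets (0.0355), with RLE scaling (0.0407), with a mean CPM of at least 5 as filter (0.0453), and by DESeq2 (adjusted p = 3.97e-06). It did not pass with upper-quartile scaling (edgeR adjusted p = 0.11), with no filter on low counts (0.149), or without any single one of the other 11 libraries (0.0806 to 0.165). Leaving out each library in turn moved the averaged log2 fold change between -0.33 and -0.28. With VIP in control virus its log2 fold change was 0.10 (95% interval -0.10 to 0.29), and all VIP libraries lay above all PBS libraries, as for 4.53% of all genes.

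Pdha1 exons overlap those of Map3k15 on the opposite strand, and the strand setting of the counting is not given in the sources used here, so its counts are uncertain to that extent. Map3k15 itself had an averaged log2 fold change with ACREB of 0.18, which did not pass edgeR's test (adjusted p = 0.869). Pdhb, the beta subunit of the same E1 enzyme, measured 88.0, 108.8 and 83.0 CPM in control PBS, 86.2, 88.1 and 91.9 in control VIP, 77.8, 98.8 and 79.0 in ACREB PBS and 76.6, 81.6 and 85.7 in ACREB VIP. It was lower without overlap in ACREB VIP against control VIP, as for 7.06% of all genes tested, and overlapped with PBS. Its averaged log2 fold change was -0.13 (SE 0.09, 95% interval -0.33 to 0.07, edgeR adjusted p = 0.764).

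Among the kinases that inactivate this enzyme, Pdk4, known for its induction in fasting (chromosome 6, 5483351 to 5496309, minus strand), measured 28.3, 21.1 and 22.4 CPM in control PBS and 44.8, 28.2 and 28.7 in control VIP. It measured 27.7, 25.2 and 24.1 CPM in ACREB PBS and 37.8, 32.2 and 30.5 in ACREB VIP. VIP was higher in 6 of 6 same-numbered pairs, by 0.34 to 0.66 (log2), and 3.66% of all genes tested were higher in 6 of 6. With ACREB all VIP libraries lay above all PBS libraries, as for 3.45% of all genes tested, while with control virus 1 VIP library fell just below the highest PBS library. Replicate 1 was the highest in every group.

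The Pdk4 log2 fold change with VIP was 0.50 (SE 0.19, 95% interval 0.10 to 0.91) in control virus and 0.38 (SE 0.19, -0.02 to 0.79) with ACREB. Neither passed edgeR's quasi-likelihood test without the block (Benjamini-Hochberg adjusted p = 0.577 and 1) or with it (0.0617 and 0.725). Averaged over both viruses, Pdk4 rose by 0.43 with the block (SE 0.08, edgeR adjusted p = 0.0171), but did not pass without it (0.271). The difference between viruses was -0.12 (95% interval -0.69 to 0.45, edgeR adjusted p = 1). Per kb, Pdk4 made up 21.6 ± 4.44% of Pdk1, Pdk2 and Pdk4 in control PBS and 29.0 ± 4.77% in control VIP (SD, n = 3). With ACREB it made up 24.0 ± 1.42% and 28.5 ± 2.21%. PBS and VIP did not overlap in either virus, and how often such shares separate groups for other genes was not computed. Pdk2 ranged from 49.1 to 77.4 CPM over the 12 libraries. Pdk1, a kinase known as a target of hypoxia signalling, was higher without overlap in ACREB PBS than in control PBS, at 48.2 to 52.1 against 39.5 to 47.6 CPM, against 4.34% of all genes, and did not pass edgeR's test (log2 0.17, adjusted p = 0.956).

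In the pentose phosphate pathway 0 of 6 members passed any of these comparisons with or without the block. G6pdx, the entry enzyme that makes NADPH, measured 99.3, 144.4 and 96.9 CPM in control PBS, 107.3, 112.8 and 95.4 in control VIP, 91.4, 111.7 and 91.9 in ACREB PBS and 102.0, 113.9 and 98.9 in ACREB VIP. Library 2 was the highest in each group, and the groups overlapped. The G6pdx log2 fold change was -0.11 (95% interval -0.45 to 0.23) with VIP in control virus and -0.21 (-0.55 to 0.13) with ACREB and PBS. Over the 12 libraries the lactonase Pgls ranged from 46.6 to 74.3 CPM, the phosphogluconate dehydrogenase Pgd from 132.5 to 186, the transketolase Tkt from 182 to 318 and Taldo1 from 112.4 to 198, all 4 with the peak in control PBS library 2.

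Rpia, which makes ribose 5-phosphate, measured 12.4, 13.7 and 11.0 CPM in control PBS, 9.72, 10.2 and 11.7 in control VIP, 12.3, 12.9 and 11.5 in ACREB PBS and 10.2, 9.22 and 11.5 in ACREB VIP. With ACREB the VIP libraries lay below the PBS libraries, as for 3.26% of all genes, by a margin of under 0.1 CPM at the nearest pair. Its log2 fold change was -0.23 (SE 0.14) in control virus and -0.25 (SE 0.14) with ACREB, and edgeR's adjusted p was 0.653 in the average. Taldo1 (transaldolase) was called lower with ACREB at -0.18 in the average with the block plus GC and length offsets (edgeR adjusted p = 0.0293), against 9.81% of all genes called in either direction in that fit.

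**Figure D4:**
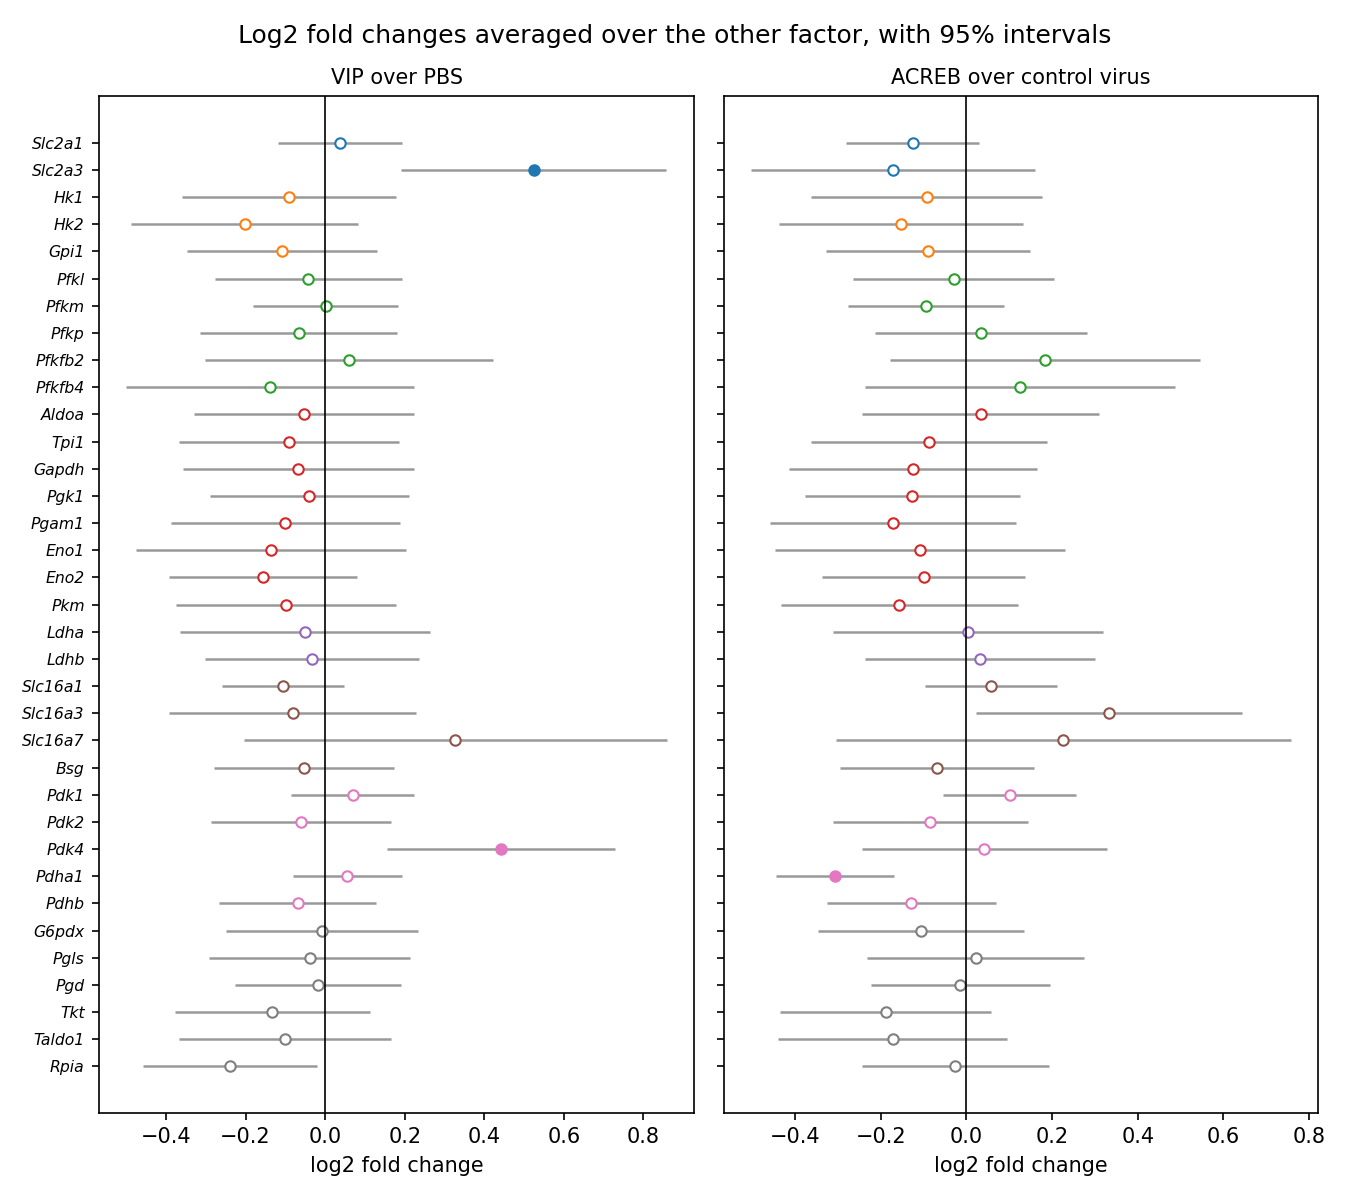
Points are log2 fold changes of each gene, VIP over PBS averaged over both viruses and ACREB over control virus averaged over both treatments, with 95% intervals from the fit without the block. Filled points passed an adjusted p of 0.05 with the replicate block, which are Slc2a3 (0.52) and Pdk4 (0.44) for VIP and Pdha1 (-0.31) for ACREB.

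Whether ACREB changed the VIP response was asked by the interaction, which subtracts the log2 fold change with VIP in control virus from that in ACREB cultures. By edgeR's test 0 of 35 members passed, with or without the block, and DESeq2 called 0 members too. Of all 16761 genes 0% passed in these fits. At an unadjusted p under 0.05 there were 0 members, against 1.2% of all genes. The median of the members was 0.12, with 26 of 35 above 0. The median of all genes was 0.01, with 8725 of 16761 above 0. With GC and length offsets the median of the members was 0.05, against 0.02 for all genes. Intervals of 34 of 35 members stayed within 1 of 0 on the log2 scale, Slc16a7 being the exception at a total of 1002 counts over 12 libraries.

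Of 52 further genes of glucose and pyruvate metabolism, 41 were tested. With VIP in control virus 0 rose and 1 fell by edgeR, Pfkfb3, the isozyme with the strongest bias toward making fructose 2,6-bisphosphate. Pfkfb3 measured 186, 204 and 195 CPM in control PBS and 124, 132 and 152 in control VIP. It measured 207, 210.1 and 211 CPM in ACREB PBS and 178, 174 and 192 in ACREB VIP. Every VIP library lay below every PBS library in both viruses, as for 5.27% of all genes tested with control virus and 3.26% with ACREB.

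The Pfkfb3 log2 fold change with VIP was -0.52 (SE 0.10, edgeR adjusted p = 0.0451) in control virus and -0.21 (SE 0.10, adjusted p = 1) with ACREB. The difference between the viruses, 0.31 (95% interval 0.01 to 0.62), did not pass edgeR's test (adjusted p = 1). The call in control virus was lost without any 1 library other than control VIP library 3, at edgeR adjusted p of 0.0576 to 0.303, and with upper-quartile scaling (0.0722), no filter on low counts (0.0873) or the 2 groups alone (0.498). Averaged over both viruses Pfkfb3 fell by 0.36 (edgeR adjusted p = 0.0361), and no other of the 41 genes passed in any comparison without the block. This averaged call was lost without any 1 library other than control PBS library 2 or control VIP library 3 (edgeR adjusted p of 0.0627 to 0.137). It was also lost with upper-quartile scaling (edgeR adjusted p = 0.0586) or no filter on low counts (0.0794). With the block the averaged fall passed (edgeR adjusted p = 0.00896), and Pfkfb3 was also higher with ACREB in the average by 0.26 (adjusted p = 0.0367). DESeq2 called that ACREB difference too, at 0.26 (adjusted p = 0.00928). Among VIP libraries Pfkfb3 was higher with ACREB by 0.41 by DESeq2 (adjusted p = 0.00583). It was higher there by 0.42 with the block plus GC and length offsets (edgeR adjusted p = 0.00762), while edgeR without the block did not call it. Its member relatives Pfkfb2 and Pfkfb4 had no call, at 0.12 and -0.19 with VIP in control virus.

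With the block 2 more of these 41 genes were called. Gpd2, the mitochondrial glycerol phosphate dehydrogenase of a NADH shuttle, rose with VIP by 0.52 in control virus (edgeR adjusted p = 0.0299) and by 0.35 in the average (0.0314). The glucose transporter Slc2a12 was higher with ACREB by 0.41 in the average (edgeR adjusted p = 0.0353). Aldoc, the aldolase known as an astrocyte marker, measured 291 ± 102 CPM in control PBS, 254 ± 33.9 in control VIP, 278 ± 31.0 in ACREB PBS and 295 ± 15.9 in ACREB VIP, and did not pass in any comparison with or without the block. Without control PBS library 2 it was called higher with ACREB in the blocked average, at 0.20 (edgeR adjusted p = 0.0419).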

How the data were processed

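The values the authors deposited are whole-number read counts for each Ensembl gene in each library, with no scaling. The submitters' processing notes name HTSeq 0.11.2, STAR 2.7.1a, Trimmomatic 0.39, edgeR and R 3.6.1 without roles, and the builds GRCm38 and mm10. Not given in the sources used here are the annotation release, the strand setting and how reads with several matches were treated. Depth was 16571398 to 20529238 counts per library, and intervals cover the spread between libraries only. Symbols, positions and exon lengths come from GENCODE M21 (GRCm38). Exon length is all annotated exon bases of a gene and not the length of a single transcript. The table holds 0 rows that name no gene. Aldoa has 2 identifiers, of which the one at the RefSeq start was used. Exons of 12 of the 35 members overlap a gene on the opposite strand, and 11 members have near-identical genes (95% identity over at least 150 bases of coding sequence), whose counts could be split.

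The 35 members, the 52 further genes, the steps, markers and motifs were chosen with earlier results of these data known. Counts were fitted in R 4.3.3 with edgeR 4.0.16 (TMM, filterByExpr, quasi-likelihood, a mean per group, 12 libraries, residual degrees of freedom 8), and p-values were adjusted by Benjamini-Hochberg over 16761 genes at 0.05. CPM are TMM-scaled, and log2 CPM use a prior count of 2. An SE is the absolute log2 fold change over the square root of edgeR's F, and a 95% interval uses the t distribution, so both are approximate. Of the members, those named with values per library were those called with or without the block, the 2 largest rises and falls of each of the 4 pairwise comparisons, and 12 fixed genes, to which Pdhb, Pgam1, Pdk1 and others with a group separation were added after seeing their values.

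Replicate numbers, taken from the titles, pair the samples: deviations from group means correlated in 18 of 18 same-numbered pairs (r 0.132 to 0.679 across genes), and 12 of 12 libraries correlated best with their own number. The replicate number as a block was therefore added in a further fit, whose values are given beside the unblocked ones. Alternatives were DESeq2 1.42.0, other scalings, filters, offsets for GC content and exon length (spline with 5 degrees of freedom), the 2 groups alone, and leaving out each library. The edgeR fit without block or offsets was tested on simulated counts, for VIP in control virus and for the interaction. The other fits and steps were not tested in that way.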

Additional observations from a re-analysis of the deposited data

How the results depend on the processing

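Without the block 0 members were called in each of the 7 comparisons, and what follows counts members called under an alternative. VIP in control virus gave 1 with the replicate block (Slc2a3), 2 with the block and GC and length offsets, and 1 in each of these fits without control PBS library 2. VIP with ACREB gave 1 in the last of these (Slc2a3, adjusted p = 0.0448), and the average over viruses gave 2, 3, 2 and 3 in the same 4 fits. ACREB with PBS gave 1 with offsets and block, with or without that library. ACREB with VIP gave 1 by DESeq2, 1 with offsets and block, and 1 in either blocked fit without that library. The average ACREB effect gave 1 with RLE scaling, 1 with a mean CPM of at least 5, 1 by DESeq2, 1 with the block, 1 with offsets, 5 with offsets and block, and 1 and 5 in the blocked fits without that library. Leaving out 1 library each time gave 0 to 1 there, the 1 being Pdha1 without control PBS library 2, and 0 in the other comparisons. The cause of these differences was not tested. The interaction stayed at 0 members under the alternatives run. The 2 fits that combine the block with leaving out control PBS library 2 were chosen after seeing the data. No direction of a called result reversed. Slc16a7 had the fewest counts of the members (1002 in all) and SEs of 0.34 to 0.35 in the 4 pairwise comparisons.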
